A study of Mus musculus with 33 samples.

Results

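The genes described here are 38 genes of the cell cycle, a given list of mouse symbols that matched 38 of the 54347 gene identifiers in a table of expression counts from mouse ovary. They fall into 12 genes of S phase, 16 genes of mitosis, and a class of 10 with the cyclins, Cdk1 and E2f1. The table holds 33 libraries of polyadenylated RNA in 3 experiments, which compare ovaries that differ in follicle-stimulating hormone (FSH) and ovaries at different stages of the estrous cycle. Fshb encodes the subunit that is specific to FSH. Experiment 1 had 3 libraries each with the genotype labels WT, Fshb(+/-) and Fshb(-/-). Experiment 2 had 4 libraries labelled Fshb(-/-) and 4 labelled Fshb(-/-) HFSHB, called the rescue here, in which a human FSHB transgene is added to the mutant background that both groups share; the labels do not give the transgene's promoter. Experiment 3 had 4 libraries each at the stages labelled DE, PE and E, by usual usage diestrus, proestrus and estrus, and 4 whose stage label is KO (anestrus). The genotype label is WT for all 16 libraries of experiment 3, also for those labelled KO (anestrus). In experiments 1 and 2 the stage is given as NA. The labels give no ages and do not say whether each library is from an animal of its own, so p-values speak of the spread among these libraries, and that spread may be technical.

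A cell commits to division when D-type cyclins activate their kinases and E2F transcription factors are released from the retinoblastoma protein. E2F factors then raise the genes of S phase, among them the Mcm helicase, and the E-type and A-type cyclins drive DNA synthesis. The genes of mitosis follow, raised by complexes of MuvB, B-MYB and FOXM1 at promoters that often hold a CHR element and CCAAT boxes. In the ovary most dividing cells are granulosa cells of growing follicles, where FSH is known to raise Ccnd2. Oocytes do not divide at these stages, but they store messages of cyclins and of mitotic kinases.

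The promoters below are examples of each class that hold a match to a searched motif, for genes with small p-values among those with a match in the comparison of Fshb(-/-) with WT. RefSeq promoters (GRCm38.p6) matched 30 of the 38 genes, and the 250 bases before the start were searched on both strands for 3 motifs, with overlapping matches counted. The E2F site was taken as the letters TTCCCGC, or else as the letters TTCGCGC, or else as the letters TTGCCGC, or else as the letters TTGGCGC. The CHR element was taken as the letters TTTGAA and the CCAAT box by its name. Capitals mark every match. Each sequence reads 5′ to 3′ on the gene's strand and ends next to the start. Mcm5 is at chr8:75109259-75109508 (plus strand), Mcm6 at chr1:128359706-128359955 (minus), Bub1b at chr2:118597961-118598210 (plus), Kif23 at chr9:61946800-61947049 (minus), Cdc20 at chr4:118437344-118437593 (minus), Cdk1 at chr10:69352913-69353162 (minus) and Ccnb2 at chr9:70421555-70421804 (minus).
Mcm5: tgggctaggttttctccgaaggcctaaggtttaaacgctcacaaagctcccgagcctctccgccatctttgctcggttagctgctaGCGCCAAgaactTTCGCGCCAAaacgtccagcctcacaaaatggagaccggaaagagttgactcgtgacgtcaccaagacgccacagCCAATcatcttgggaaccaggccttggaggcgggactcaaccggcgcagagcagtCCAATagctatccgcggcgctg
Mcm6: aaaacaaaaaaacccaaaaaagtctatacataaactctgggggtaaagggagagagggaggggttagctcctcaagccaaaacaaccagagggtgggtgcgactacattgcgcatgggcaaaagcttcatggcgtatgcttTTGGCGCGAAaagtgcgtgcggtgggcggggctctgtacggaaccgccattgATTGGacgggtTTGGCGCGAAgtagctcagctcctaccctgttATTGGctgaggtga
Bub1b: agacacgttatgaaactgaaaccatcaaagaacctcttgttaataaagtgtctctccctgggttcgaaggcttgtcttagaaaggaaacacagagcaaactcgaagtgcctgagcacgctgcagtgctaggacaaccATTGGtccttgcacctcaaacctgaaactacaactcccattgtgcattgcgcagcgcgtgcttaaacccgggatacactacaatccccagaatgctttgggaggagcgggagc
Kif23: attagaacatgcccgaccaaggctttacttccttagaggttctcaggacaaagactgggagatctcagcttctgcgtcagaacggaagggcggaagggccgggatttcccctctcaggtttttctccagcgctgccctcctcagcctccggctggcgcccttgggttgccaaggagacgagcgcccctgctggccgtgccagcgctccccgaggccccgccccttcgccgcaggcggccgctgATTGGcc
Cdc20: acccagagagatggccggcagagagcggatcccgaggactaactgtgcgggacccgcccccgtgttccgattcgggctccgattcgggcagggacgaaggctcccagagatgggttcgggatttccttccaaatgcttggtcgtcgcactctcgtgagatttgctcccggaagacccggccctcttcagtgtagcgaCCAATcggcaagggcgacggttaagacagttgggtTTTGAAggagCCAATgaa
Cdk1: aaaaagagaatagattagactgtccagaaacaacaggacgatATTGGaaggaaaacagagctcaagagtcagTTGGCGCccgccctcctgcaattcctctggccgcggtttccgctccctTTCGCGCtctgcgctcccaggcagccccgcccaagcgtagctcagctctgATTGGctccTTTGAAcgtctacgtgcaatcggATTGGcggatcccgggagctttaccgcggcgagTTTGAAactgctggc
Ccnb2: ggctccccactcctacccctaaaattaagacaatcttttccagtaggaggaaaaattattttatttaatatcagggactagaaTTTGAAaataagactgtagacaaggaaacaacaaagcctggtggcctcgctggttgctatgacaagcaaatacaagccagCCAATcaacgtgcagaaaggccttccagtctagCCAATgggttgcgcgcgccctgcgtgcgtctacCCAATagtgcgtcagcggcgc
Mcm5 and Mcm6 stand for the S phase genes and held E2F sites, beginning 164, 152 and 149 bases before the start in Mcm5 and 109, 106, 46 and 43 bases before it in Mcm6, some of them overlapping. The mitosis genes Bub1b and Kif23 held a single CCAAT box each and no other match. Mcm5 and Mcm6 held CCAAT boxes too. Cdc20, which did not pass against WT, has the smallest p of the mitosis genes with a CHR element; it held one 18 bases before the start, with CCAAT boxes at 53 and 8. Cdk1 held E2F sites (178 and 130), CHR elements (71 and 15) and CCAAT boxes (208, 80 and 48), and Ccnb2 held a CHR element (167) and CCAAT boxes (87, 54 and 21). Aurka and Ccnb1 had smaller p-values than some of these, but 140 and 84 bases of their windows lie in annotated exons and they are not printed. Of the printed windows, those of Cdk1 and Cdc20 have 26 and 9 such bases. Birc5 and Nusap1, which passed against WT, held no match to any of the 3 motifs. All 250 bases of the Nusap1 window lie in exons of Oip5. Windows wholly or mostly in exons, as also for Mcm7, E2f1, Plk1 and Pcna, were kept in the shares that follow. An E2F site was found in 6 of 11 S phase promoters (54.5%), 1 of 13 mitosis promoters (7.69%), 2 of 6 of the cyclin class (33.3%) and 7.97% of the promoters of all 27025 genes. A CHR element was found in 1 of 11 (9.09%), 4 of 13 (30.8%) and 2 of 6 (33.3%) of these classes and in 16.3% of all genes. A CCAAT box was found in 8 of 11 (72.7%), 11 of 13 (84.6%) and 3 of 6 of these classes, and in 34.5% of all genes. A match describes letters in a window and does not show that a factor was bound.

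Library totals ran from 10.1 M to 23.7 M counts, and markers of granulosa cells, oocytes and luteal cells were detected in every group. Counts of Fshb itself went against the labels of experiment 1, at 1, 1 and 0 in the libraries labelled WT and 68, 79 and 82 in those labelled Fshb(-/-), so the labels alone set every direction given here. Fshb was also counted in Fshb(+/-), at 43, 60 and 106. In experiment 2 it was at 169, 184, 176 and 119 in Fshb(-/-) and 221, 270, 370 and 431 in the rescue. In experiment 3 it was at 93, 114, 93 and 90 in KO (anestrus) and 86, 70, 198 and 60 at DE. At PE it was at 0, 0, 51 and 26 and at E at 50, 170, 0 and 60. The source of these counts was not tested. Levels are in CPM, counts relative to the library total scaled within each experiment, and are set side by side across experiments only as a description. Libraries also differed in 12 markers of the oviduct epithelium, a tissue next to the ovary. These summed to 7703, 4888, 24.7 and 3489 CPM in DE replicates 1 to 4, 20.6, 30.9, 4878 and 24.7 in E replicates 1 to 4, 3344 to 5779 at PE and 33.4 to 76.4 in KO (anestrus). DE replicate 3 and E replicate 3 thus stood apart from their groups. In experiment 1 Fshb(+/-) replicate 3 stood apart, at 1577, and the other libraries summed to 25.7 to 76.5. In experiment 2 the sums were 29.8, 28.4, 444 and 163 in Fshb(-/-) replicates 1 to 4. They were 19.9, 610, 28 and 28 in rescue replicates 1 to 4. Fshb(-/-) replicates 3 and 4 and rescue replicate 2 thus lay above the rest of their groups. No marker of the list was at 0 in every library of a group.

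**Figure D1:**
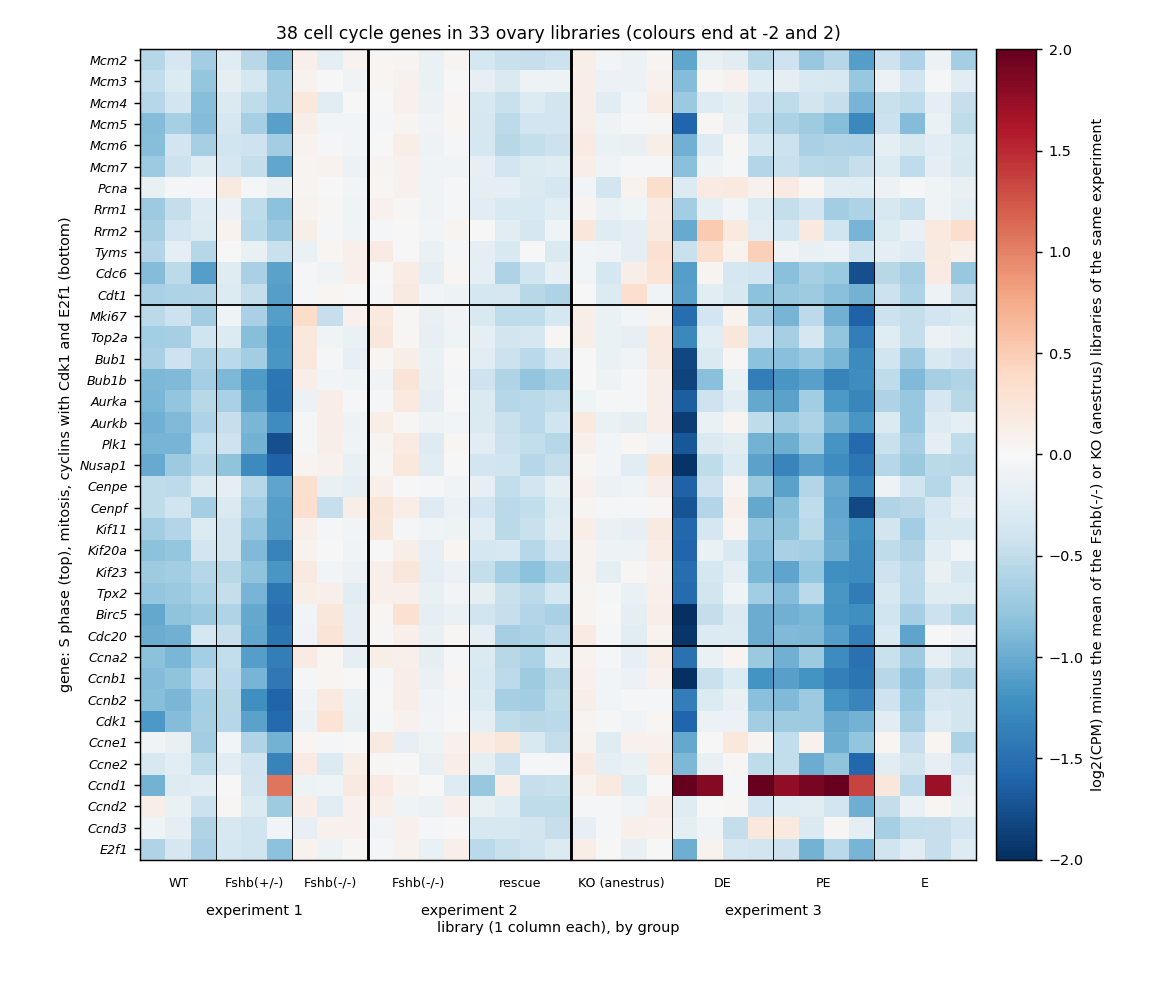
Level of each of the 38 genes (rows) in each of the 33 libraries (columns), as log2(CPM) minus the mean of the libraries labelled Fshb(-/-) or KO (anestrus) in the same experiment; red is higher, blue is lower. Most rows are blue in the WT, Fshb(+/-), rescue, DE, PE and E columns, darkest in Fshb(+/-) replicate 3, DE replicate 1 and PE replicate 4, while Ccnd1 is red in Fshb(+/-) replicate 3 and in 8 libraries of experiment 3.

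In experiment 1 the cell cycle genes were higher in ovaries labelled Fshb(-/-) than in those labelled WT. All 38 log2 fold changes were above 0, with a median of 0.60, against -0.01 for all genes. The test called 9 of the 38 higher (edgeR quasi-likelihood test, adjusted over 17223 genes by Benjamini-Hochberg, threshold 0.05; background 4.53% of all genes called higher) and none lower. In 32 of the 38, every Fshb(-/-) library was above every WT library, which held for 18.3% of all genes.

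Among the 12 S phase genes, whose median log2 fold change was 0.52, Mcm5 and Mcm6 rose. Both encode subunits of the helicase ring that opens DNA at replication origins. Mcm5 (chromosome 8, 75109569 to 75128439, GRCm38) was at 40.5, 46.8 and 40.4 CPM in the libraries labelled WT and 79.7, 70.7 and 71.4 in those labelled Fshb(-/-). The groups did not overlap, and the log2 fold change was 0.80 ± 0.17 (SE), with an edgeR adjusted p of 0.026. Mcm6 (chromosome 1, 128331590 to 128359664) was at 62.2, 86 and 71.1 CPM in WT and 118, 111 and 108 in Fshb(-/-), also without overlap, with 0.62 ± 0.13 (adjusted p = 0.027). The other subunits Mcm2, Mcm3, Mcm4 and Mcm7 had log2 fold changes of 0.53 ± 0.17, 0.50 ± 0.15, 0.60 ± 0.16 and 0.46 ± 0.18 and did not pass, with adjusted p from 0.053 to 0.16. Cdc6 and Cdt1, which load the helicase, had 0.82 ± 0.23 and 0.62 ± 0.18 (adjusted p = 0.062 and 0.069).

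Genes that supply nucleotides had values near those of Mcm3 and Mcm7. Rrm1 and Rrm2, the subunits of ribonucleotide reductase, had log2 fold changes of 0.47 ± 0.18 and 0.43 ± 0.20, and Tyms, thymidylate synthase, had 0.44 ± 0.16; none passed. Pcna, the sliding clamp of DNA polymerase, had the smallest value of the 38, 0.07 ± 0.10 (edgeR adjusted p = 0.69). It was at 67.8, 73 and 73.1 CPM in WT and 78, 74.5 and 72.4 in Fshb(-/-), and the groups overlapped. Pcna and Tyms have annotated pseudogenes and their estimated counts are uncertain, as are those of Mcm7, which overlaps another gene on the opposite strand.

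The 16 mitosis genes had the highest class median, 0.69, and 6 of them rose: Bub1b, Kif23, Aurkb, Birc5, Nusap1 and Aurka. Bub1b (chromosome 2, 118598211 to 118641591) encodes BubR1, a protein of the spindle checkpoint. It was at 55.2, 56.3 and 64.4 CPM in WT and 113, 100 and 97.8 in Fshb(-/-), a log2 fold change of 0.82 ± 0.14 (adjusted p = 0.011). Every Fshb(-/-) library was above every WT library, and Bub1b was the only member called when any 1 of the 6 libraries was left out. Kif23 (chromosome 9, 61915905 to 61946774), a kinesin of the midzone of the dividing cell, was at 31.7, 32.1 and 35 CPM against 58.8, 49.9 and 48, with 0.66 ± 0.15 (adjusted p = 0.034). Aurkb and Birc5 (survivin) belong to the complex that corrects the attachment of chromosomes to the spindle. Birc5 was at 17.7, 20.5 and 21.6 CPM in WT and 34.7, 42.3 and 31.7 in Fshb(-/-), with 0.86 ± 0.21 (adjusted p = 0.043), and Aurkb had 0.81 ± 0.19 (adjusted p = 0.037). Aurka, a kinase of spindle poles, and Nusap1, a microtubule-binding protein, had 0.75 ± 0.20 and 0.76 ± 0.20 (adjusted p = 0.049 for both). Nusap1 overlaps Oip5 on the opposite strand, and the labels do not say whether counting used strand; the same limit holds for Plk1, Cdc20, Kif20a, Ccna2, Ccnd1, Ccnd2, Ccnd3 and Ccne2, which also overlap genes on the opposite strand.

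The other 10 mitosis genes had log2 fold changes from 0.45 (Cenpe, a kinetochore motor) to 0.77 (Plk1, a kinase of mitotic entry) and did not pass. Mki67, whose product Ki-67 is stained to count dividing cells, was at 125, 134 and 112 CPM in WT and 234, 132 and 192 in Fshb(-/-). Its groups overlapped through Fshb(-/-) replicate 2, and its log2 fold change was 0.59 ± 0.27 (edgeR adjusted p = 0.21). Top2a, the topoisomerase that untangles sister chromatids, was at 104, 106 and 127 CPM against 193, 158 and 153, with 0.58 ± 0.21 (adjusted p = 0.13); its groups did not overlap, although it missed the threshold.

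In the cyclin class the median log2 fold change was 0.48 and Ccna2 rose. Ccna2 (chromosome 3, 36564865 to 36572150), the cyclin of S phase and G2, was at 48.2, 45.1 and 53.2 CPM in WT and 95.3, 87.8 and 74.3 in Fshb(-/-), with 0.81 ± 0.21 (edgeR adjusted p = 0.046). Cdk1 (chromosome 10, 69335146 to 69352938), the kinase of mitosis, had the highest fold change of the 38 genes, 0.89 ± 0.24, with an adjusted p of 0.054. It was at 23.2, 28 and 32.3 CPM against 47.2, 61.8 and 46.1, without overlap. Ccnb1 and Ccnb2, the cyclins that activate Cdk1 in mitosis, had 0.72 ± 0.20 and 0.82 ± 0.23 (adjusted p = 0.06 and 0.064), and both have annotated pseudogenes. E2f1 had 0.53 ± 0.15 (adjusted p = 0.066). The cyclins of G1 had smaller values: 0.28 ± 0.27 and 0.36 ± 0.27 for the E-type Ccne1 and Ccne2, and 0.44 ± 0.36, 0.14 ± 0.21 and 0.29 ± 0.15 for the D-type Ccnd1, Ccnd2 and Ccnd3. Ccnd2 (chromosome 6, 127125162 to 127152193), the D-type cyclin most tied to granulosa cells, was at 409, 345 and 279 CPM in WT and 413, 325 and 400 in Fshb(-/-), and the groups overlapped.

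The number of calls depended on the fit. Without any 1 of the 3 Fshb(-/-) libraries or without WT replicate 1, Bub1b alone was called. Mcm6 joined it without WT replicate 2, and Aurkb without WT replicate 3. Between 456 and 1031 of all genes tested were called in these fits, in either direction. A fit of these 6 libraries alone called 24 of the 38 higher, DESeq2 20 and limma voom 29. The same fits called 11.3%, 13.7% and 20.8% of all genes in either direction.

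**Figure D2:**
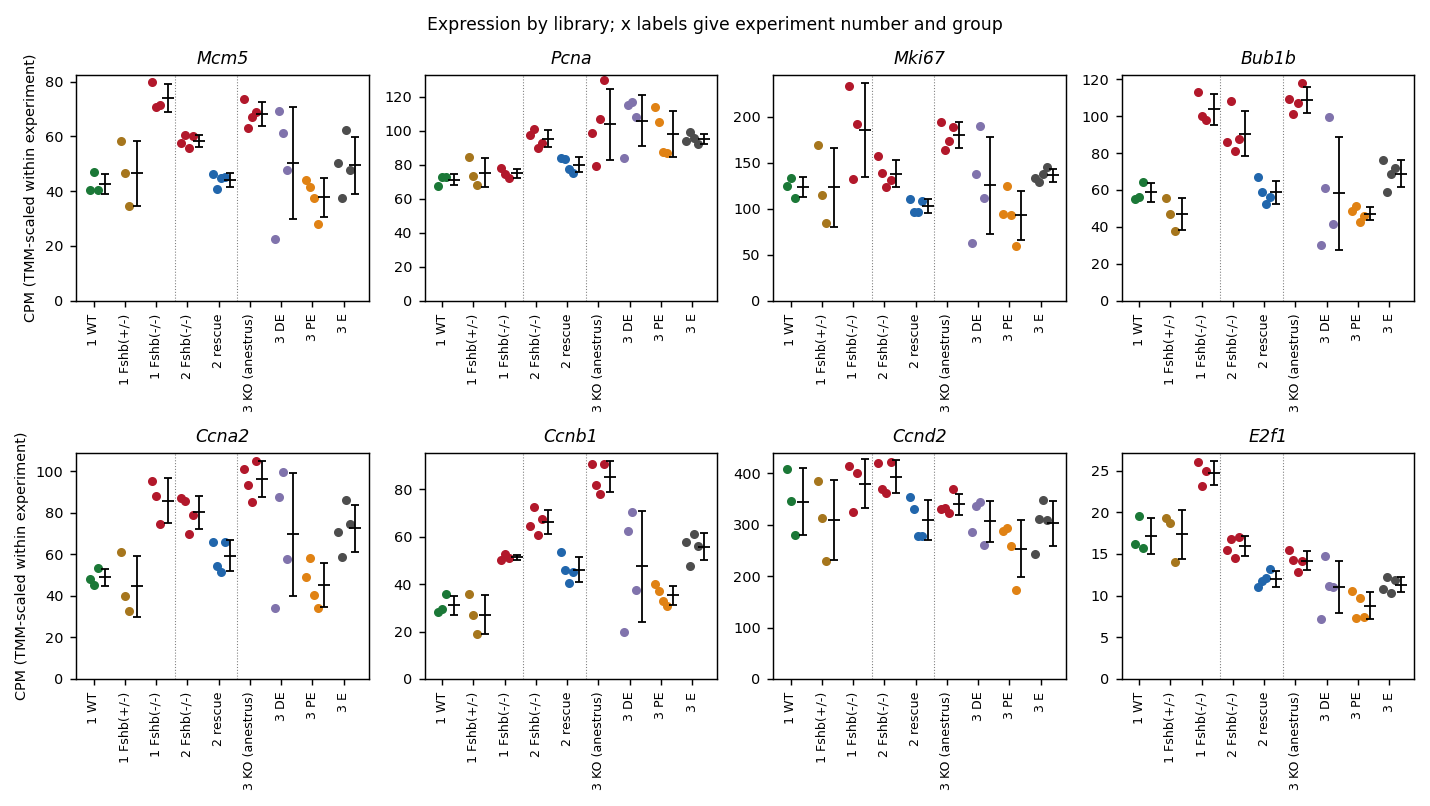
CPM (scaled within an experiment) of 8 of the genes in each library, 1 point each, by experiment and group, with the group mean and SD to the right of the points. Every Fshb(-/-) library of Bub1b and E2f1 lies above every WT or rescue library, and every KO (anestrus) library above every PE library, of the same experiment; Pcna and Ccnd2 overlap between WT and Fshb(-/-).

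No member passed the test between ovaries labelled Fshb(+/-) and WT. The edgeR quasi-likelihood test called 0 of 38 (background 0.0871% of all genes, in either direction), 1 had an unadjusted p under 0.05, and DESeq2 and limma voom also called 0. Of all 17223 genes, 1783 had an unadjusted p under 0.05. The median log2 fold change was 0.09 for S phase, -0.17 for mitosis and -0.14 for the cyclin class. The 3 libraries were spread in 1 order: replicate 1 was the highest in 36 of the 38 genes and replicate 3 the lowest in 36. Ccna2, for example, was at 61, 39.9 and 32.9 CPM in replicates 1 to 3. Replicate 3 is the library with an oviduct marker sum of 1577, and the part of this in its levels was not tested.

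Against Fshb(+/-), 19 of the 38 genes rose in Fshb(-/-) and none fell (background 9.1% of all genes called higher and 7.9% lower). These were 2 S phase genes, 12 mitosis genes and 5 of the cyclin class, and the comparison shares its Fshb(-/-) libraries with the one against WT. Nusap1 had the largest log2 fold change, 1.20 ± 0.20 (edgeR adjusted p = 0.0052), at 23.9, 17.3 and 13.7 CPM in Fshb(+/-) and 43.7, 44.7 and 37.7 in Fshb(-/-). Bub1b followed with 1.15 ± 0.14 (adjusted p = 0.0013). The B-type cyclins and Cdk1, which missed the threshold against WT, passed here, with 1.07 ± 0.23 for Ccnb2, 1.02 ± 0.24 for Cdk1 and 0.91 ± 0.20 for Ccnb1. The call count was 30 without Fshb(+/-) replicate 1 and 7 without replicate 2. Of all genes these fits called 2581 of 17665 and 2154 of 17667, in either direction. The call count was 6, 6 and 11 without Fshb(-/-) replicate 1, 2 and 3. Here the fits called 1362 of 17657, 1888 of 17684 and 1563 of 17637 genes.

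In experiment 2, 30 of the 38 genes were lower in the rescue than in Fshb(-/-) (background 16.2% of all genes called lower) and none was higher. All 38 log2 fold changes were below 0, with a median of -0.41 against 0.00 for all 16871 genes tested. The calls covered 8 of 12 S phase genes (median -0.30), 15 of 16 mitosis genes (median -0.43) and 7 of 10 in the cyclin class (median -0.39).

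Of the S phase genes, Mcm2, Mcm5 and Mcm6 had the smallest p-values. Mcm5 was at 57.4, 60.4, 55.9 and 60.1 CPM in Fshb(-/-) and 46.3, 40.6, 44.6 and 45 in the rescue, a log2 fold change of -0.41 ± 0.06 (edgeR adjusted p = 0.0008). Mcm6 was at 114, 125, 106 and 111 CPM against 89.6, 77.4, 81.5 and 84.8, with -0.45 ± 0.06 (adjusted p = 0.00087). In both genes the highest rescue library was below the lowest Fshb(-/-) library. Mcm2, Mcm4, Mcm7, Rrm1 and Cdt1 also fell, with -0.43 ± 0.06, -0.36 ± 0.06, -0.27 ± 0.06, -0.26 ± 0.05 and -0.46 ± 0.10. Pcna fell as well, from 97.8, 101, 90 and 92.6 CPM to 84.2, 83.6, 77.8 and 75, with -0.25 ± 0.06 (adjusted p = 0.0096). Mcm3, Rrm2, Tyms and Cdc6 did not pass, with log2 fold changes of -0.16 ± 0.06, -0.16 ± 0.08, -0.19 ± 0.09 and -0.34 ± 0.12, and their groups overlapped.

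Kif23 and Bub1b fell furthest of the 38 genes. Kif23 was at 55.5, 60.7, 45.2 and 47.6 CPM in Fshb(-/-) and 37.1, 32.4, 29.5 and 33.3 in the rescue, a log2 fold change of -0.66 ± 0.11 (edgeR adjusted p = 0.0017). Bub1b was at 85.7, 108, 80.9 and 87.5 CPM against 67.2, 59.1, 52.1 and 56.3, with -0.63 ± 0.10 (adjusted p = 0.0023). The groups did not overlap in either gene. Mki67, which had overlapped in experiment 1, was at 158, 139, 124 and 131 CPM in Fshb(-/-) and 111, 96.9, 96.5 and 108 in the rescue, with no overlap and -0.42 ± 0.08 (adjusted p = 0.0046). Birc5, Cdc20, Aurka and Nusap1 fell with -0.53 ± 0.11, -0.49 ± 0.11, -0.48 ± 0.10 and -0.46 ± 0.09. Top2a was the 1 mitosis gene that did not pass, at 192, 167, 147 and 154 CPM against 144, 127, 130 and 166 (-0.22 ± 0.10, adjusted p = 0.15).

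In the cyclin class the mitotic cyclins, Cdk1, E2f1, Ccnd2 and Ccnd3 fell, and the E-type cyclins and Ccnd1 did not pass. Ccnb1 was at 64.5, 72.4, 60.5 and 67.4 CPM in Fshb(-/-) and 53.3, 45.8, 40.3 and 45 in the rescue, a log2 fold change of -0.52 ± 0.09 (edgeR adjusted p = 0.0024). Ccnb2, Cdk1 and Ccna2 had -0.53 ± 0.10, -0.44 ± 0.09 and -0.43 ± 0.10. Ccnd2, which overlapped between WT and Fshb(-/-), was at 420, 369, 361 and 422 CPM in Fshb(-/-) and 353, 330, 277 and 277 in the rescue, without overlap and with -0.35 ± 0.09 (adjusted p = 0.02); the call was lost in 4 of 8 fits that left out 1 library, with adjusted p up to 0.059. Ccnd3 (chromosome 17, 47505051 to 47599691) was at 71, 78.4, 72 and 73.8 CPM against 59.2, 58.9, 57 and 53.8, with -0.37 ± 0.05 (adjusted p = 0.00091). Ccnd3 has annotated pseudogenes and overlaps Bysl on the opposite strand. E2f1 was at 15.5, 16.8, 14.5 and 17 CPM against 11, 11.7, 12.1 and 13.2, with -0.41 ± 0.09 (adjusted p = 0.0091). Ccne1, Ccne2 and Ccnd1 had -0.08 ± 0.20, -0.17 ± 0.11 and -0.35 ± 0.18, and their groups overlapped.

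A fit over experiments 1 and 2 compared the step from Fshb(-/-) to the rescue with the step from Fshb(-/-) to WT. The difference passed for 0 of the 38 genes (edgeR quasi-likelihood test; background 0.153% of 18255 genes), with 1 at an unadjusted p under 0.05 and 0 called by DESeq2 or limma voom. Of all 18255 genes, 1213 had an unadjusted p under 0.05. The median difference was 0.20 and 34 of 38 were above 0, as were 9050 of all 18255 genes. A value above 0 stands for a smaller fall in the rescue. The 2 steps start from different Fshb(-/-) libraries, and the shift of the 38 genes together was not tested. Standard errors of the difference ran from 0.11 to 0.41. The gene with the smallest p was Mcm5, with 0.38 ± 0.18 (adjusted p = 0.75).

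**Figure D3:**
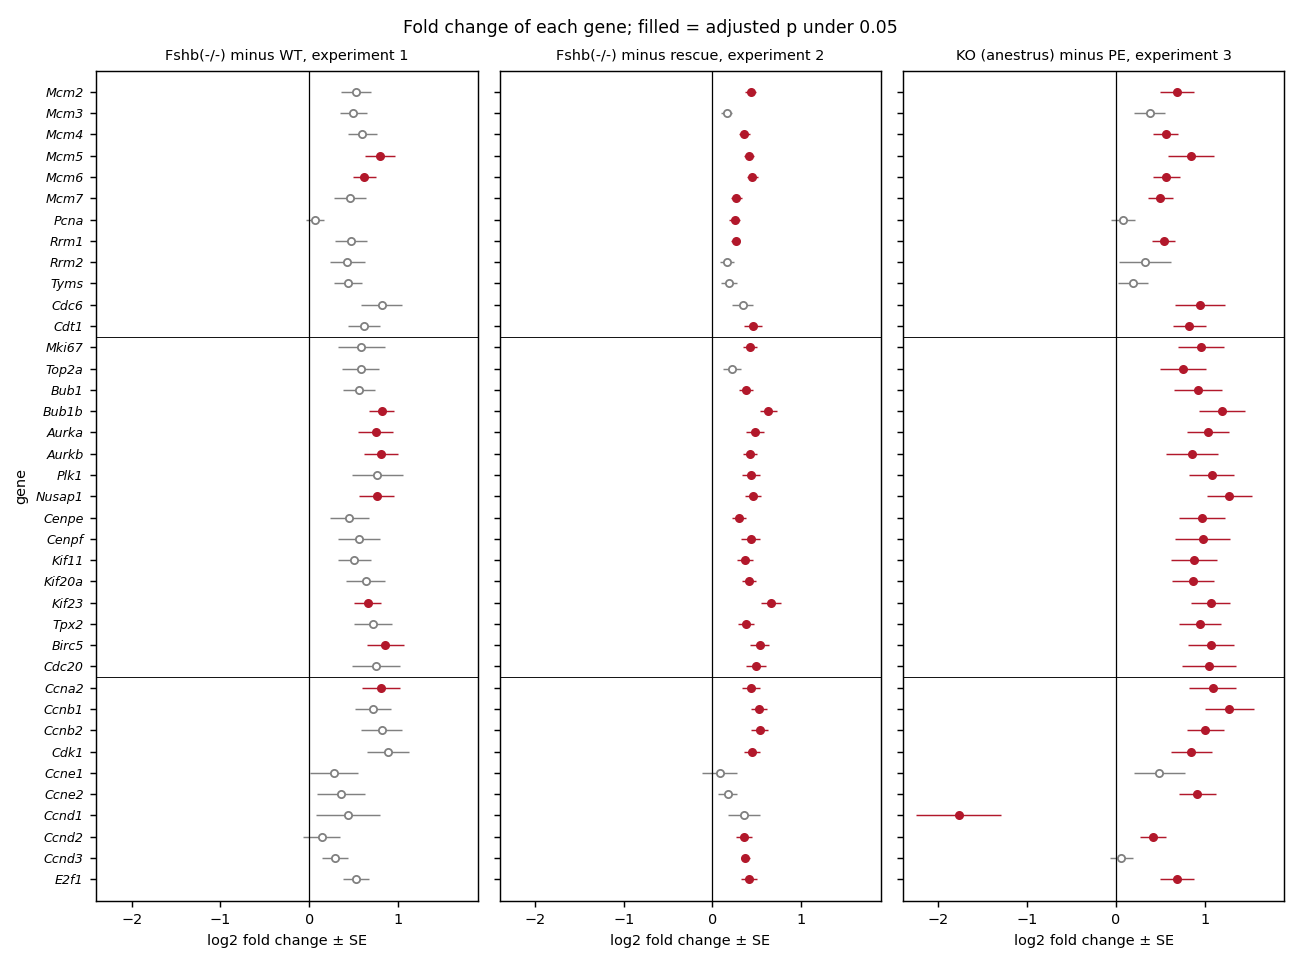
Log2 fold change and its SE for each of the 38 genes (rows), as Fshb(-/-) minus WT, Fshb(-/-) minus rescue and KO (anestrus) minus PE; filled points passed the adjusted threshold of 0.05. All points of experiments 1 and 2 lie above 0, with 9 and 30 filled, and in experiment 3 Ccnd1 alone lies below 0 while 31 genes above 0 are filled.

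In experiment 3 the cell cycle genes were lower at PE than in KO (anestrus), with fewer calls at DE and 1 at E. At PE 31 of 38 were lower (background 16.3% of all genes called lower) and Ccnd1 was higher (background 17.5% called higher). The lower genes were 8 of 12 in S phase (median log2 fold change -0.55), 16 of 16 in mitosis (median -0.98) and 7 of 10 in the cyclin class (median -0.77). At DE 7 were lower (background 11.6%) and Ccnd1 was higher (background 13.5%). At E Ccnd3 was lower (background 8.98%) and none was higher. The 3 comparisons share the KO (anestrus) libraries. Oviduct marker sums were 3344 to 5779 CPM at PE and 33.4 to 76.4 in KO (anestrus). Stage and oviduct RNA thus cannot be told apart between PE and KO (anestrus). The part of oviduct RNA in the falls at PE was not tested.

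At PE the largest falls were those of Nusap1, Ccnb1 and Bub1b. Nusap1 was at 57.5, 54.1, 48 and 66.3 CPM in KO (anestrus) and 22.4, 26.4, 23.6 and 20.7 at PE, a log2 fold change of -1.28 ± 0.25 (edgeR adjusted p = 0.0027). Ccnb1 was at 90.8, 81.8, 78.1 and 90.5 CPM against 39.9, 37.1, 33 and 30.8, with -1.28 ± 0.28 (adjusted p = 0.0044). Bub1b was at 109, 101, 107 and 118 CPM against 48.6, 51.2, 42.8 and 45.8, with -1.20 ± 0.26 (adjusted p = 0.0041). In all 3 genes every PE library was far below every KO (anestrus) library. Mki67 was at 195, 164, 174 and 189 CPM in KO (anestrus) and 94.6, 125, 92.8 and 59 at PE, with -0.96 ± 0.26 (adjusted p = 0.014). The smallest fall among the 16 mitosis genes was that of Top2a, -0.76 ± 0.26. The calls of Top2a and Aurkb at PE were each lost in 7 of 8 fits that left out 1 library, without the filter on low counts and with the replicate block, with edgeR adjusted p up to 0.098 and 0.1. Those of Cenpf and Kif11 were lost in 4 of 8 such fits.

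Among S phase genes at PE, Mcm5 was at 73.7, 63.1, 67 and 68.8 CPM in KO (anestrus) and 44.1, 41.6, 37.6 and 27.9 at PE, a log2 fold change of -0.85 ± 0.26 (edgeR adjusted p = 0.024), a call lost in 4 of 8 fits that left out 1 library. Cdc6, Cdt1 and Mcm2 had -0.95 ± 0.28, -0.83 ± 0.19 and -0.69 ± 0.19, and all passed. Pcna, Rrm2, Tyms and Mcm3 did not pass, with -0.08 ± 0.14, -0.33 ± 0.29, -0.19 ± 0.17 and -0.38 ± 0.17. In the cyclin class Ccna2, Ccnb2, Ccne2, Cdk1 and E2f1 fell, with -1.09 ± 0.26, -1.01 ± 0.21, -0.92 ± 0.21, -0.85 ± 0.23 and -0.69 ± 0.19. Ccne2, an E-type cyclin that had not passed in the rescue, was at 25.3, 20.1, 20.6 and 25.1 CPM in KO (anestrus) and 16.1, 11.4, 13 and 7.63 at PE; its exons overlap Ints8 on the opposite strand. Ccnd2 fell with -0.42 ± 0.15 (adjusted p = 0.045), a call lost in 7 of 8 fits that left out 1 library. Ccne1 and Ccnd3 did not pass, with -0.49 ± 0.29 and -0.06 ± 0.13.

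At DE the libraries were spread more widely. Bub1b was at 30.2, 60.8, 99.5 and 41.8 CPM in DE replicates 1 to 4, all below KO (anestrus), with -0.90 ± 0.25 (edgeR adjusted p = 0.022). Aurka, Nusap1, Kif23, Birc5, Ccnb1 and Cdt1 also fell, with -0.72, -0.83, -0.65, -0.81, -0.84 and -0.58. DE replicate 1 was the lowest of the 4 in 35 of the 38 genes and replicate 3 the highest in 26. Mki67 was at 62.9, 138, 190 and 112 CPM, so that replicate 1 lay near the lowest PE library and replicate 3 within the KO (anestrus) range. The 16 mitosis genes together summed to 376, 880, 1140 and 660 CPM in DE replicates 1 to 4, whose oviduct marker sums were 7703, 4888, 24.7 and 3489. At E they summed to 874, 753, 926 and 927 CPM, and replicate 3, the one E library with an oviduct sum of 4878, was level with the highest of the others. The part of oviduct RNA in these levels was not tested. Without DE replicate 3 the number of members called at DE was 22, and it was also 22 without DE replicate 3 and E replicate 3 together, where 33.5% and 35.8% of all genes were called in either direction. Without DE replicate 2 it was 12, where 3286 of 17247 genes were called. Without DE replicate 1 or 4 it was 4 or 0, where 2618 of 17208 and 2808 of 17230 genes were called. Without KO (anestrus) replicate 1, 2, 3 or 4 it was 1, 4, 2 or 0. Those fits called 2480 of 17241, 2805 of 17232, 2422 of 17235 and 2555 of 17236 genes. Without DE replicate 1 or 4 or a KO (anestrus) replicate, the members' share was thus not above that of all genes.

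At E most members lay below KO (anestrus) without passing, with a median log2 fold change of -0.36. Bub1b was at 76, 59, 68.7 and 71.8 CPM, below every KO (anestrus) library, with -0.66 ± 0.25 (edgeR adjusted p = 0.086). Ccnd3 was at 44.4, 50.4, 51 and 53.9 CPM at E and 62.8, 68.1, 75.2 and 74.7 in KO (anestrus), with -0.49 ± 0.13 (adjusted p = 0.021) and no overlap. This call was lost without E replicate 1 or 3 and without KO (anestrus) replicate 3 or 4. The call count was 2 without KO (anestrus) replicate 2, 3 without DE replicate 3 and E replicate 3, 20 in a fit of these 8 libraries alone, 2 by DESeq2 and 18 by limma voom. Of all genes the last 4 of these fits called 20.7%, 27%, 20.5% and 31.2%, in this order and in either direction. The fit without KO (anestrus) replicate 2 called 2175 of 17232 genes.

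Between the stages no gene passed, so the background was 0% for PE against DE, for E against PE and for DE against E. Between E and PE, 17 of 38 members and 3170 of all 16944 genes had an unadjusted p under 0.05, and 15 of these members were higher at E. Kif23 was at 43.2, 39.9, 51.8 and 46 CPM at E and 27.6, 33.7, 24.6 and 24.2 at PE, without overlap, with 0.71 ± 0.22 (edgeR adjusted p = 0.2). DESeq2 called 0 members between E and PE and limma voom 8 (background 14.7% of all genes by limma voom). Between PE and DE 2 members (Ccna2 and Ccne2) and between DE and E 2 (Ccnd1 and Ccnd3) had an unadjusted p under 0.05, and neither DESeq2 nor limma voom called any. Of all 16944 genes, 407 and 1796 had such an unadjusted p in these comparisons. The members' share between DE and E was thus not above that of all genes. Ccnd1 was called in both comparisons with E when E replicate 3 was left out. Without DE replicate 3 and E replicate 3 together, 5 members were called between E and PE and 3 between DE and E, Bub1b, Ccnd1 and Ccnd3 in both. This fit called 15.5% and 16% of all genes in these comparisons, so the members' shares were not above the background.

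Across the experiments, which share no library, the 9 genes called higher in Fshb(-/-) than in WT were all also lower in the rescue and lower at PE. They are Mcm5, Mcm6, Aurka, Aurkb, Birc5, Bub1b, Kif23, Nusap1 and Ccna2. In all, 28 genes were lower both in the rescue (28 of 30) and at PE (28 of 31). Of all genes, 4.53% were called higher against WT, 16.2% lower in the rescue and 16.3% lower at PE. How many of all genes were called in these same combinations was not counted. The overlap is thus not shown to be particular to these genes. For the calls at PE, stage and oviduct RNA cannot be told apart, as given above. Ccnd3 and Pcna were called in the rescue and not at PE, and Ccne2, Cdc6 and Top2a (a call at PE that most fits with 1 library less did not hold) at PE and not in the rescue; these differences were not tested. Mcm3, Rrm2, Tyms, Ccne1 and Ccnd1 were called in this direction in none of the 3 comparisons.

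Ccnd1 (chromosome 7, 144929931 to 144939925) differed from the other members in experiment 3. It encodes cyclin D1, a D-type cyclin that many epithelia express. It was at 28.8, 31.1, 23.1 and 27.4 CPM in KO (anestrus), 94, 102, 112 and 69.9 at PE and 123, 98.1, 26.8 and 114 at DE. The log2 fold change against KO (anestrus) was 1.77 ± 0.48 at PE (edgeR adjusted p = 0.014) and 1.71 ± 0.48 at DE (adjusted p = 0.022), where the call was lost in 4 of 8 fits that left out 1 library. DE replicate 3 lay within the KO (anestrus) range and the other DE libraries far above it. At E it was at 32, 19, 90.4 and 24.1 CPM, with 0.58 ± 0.47 (adjusted p = 0.41) and replicate 3 as the high library. In Fshb(+/-) it was at 26.9, 20.6 and 56.2 CPM, again with replicate 3 high.

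The 9 libraries with Ccnd1 at 56.2 CPM or more were those with an oviduct marker sum of 1577 CPM or more. In the other libraries, with sums up to 610, Ccnd1 was between 13.8 and 33 CPM. Of the 12 oviduct markers, 11 were called higher at PE and 11 at DE than in KO (anestrus), and 0 at E. The shares of all genes called higher at PE, DE and E were 17.5%, 13.5% and 8.98%. Ovgp1, the secreted oviduct glycoprotein, was at 7032, 4559, 3 and 3169 CPM in DE replicates 1 to 4 and 1.36, 36.2, 5.83 and 35.5 in KO (anestrus). In the comparisons of Fshb(-/-) with WT and of the rescue with Fshb(-/-), 0 and 0 of the 10 markers tested were called. Of all genes, 4.53% were called higher and 3.34% lower against WT, and 15.8% higher and 16.2% lower in the rescue. The part of oviduct RNA in the level of Ccnd1 was not tested.

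**Figure D4:**
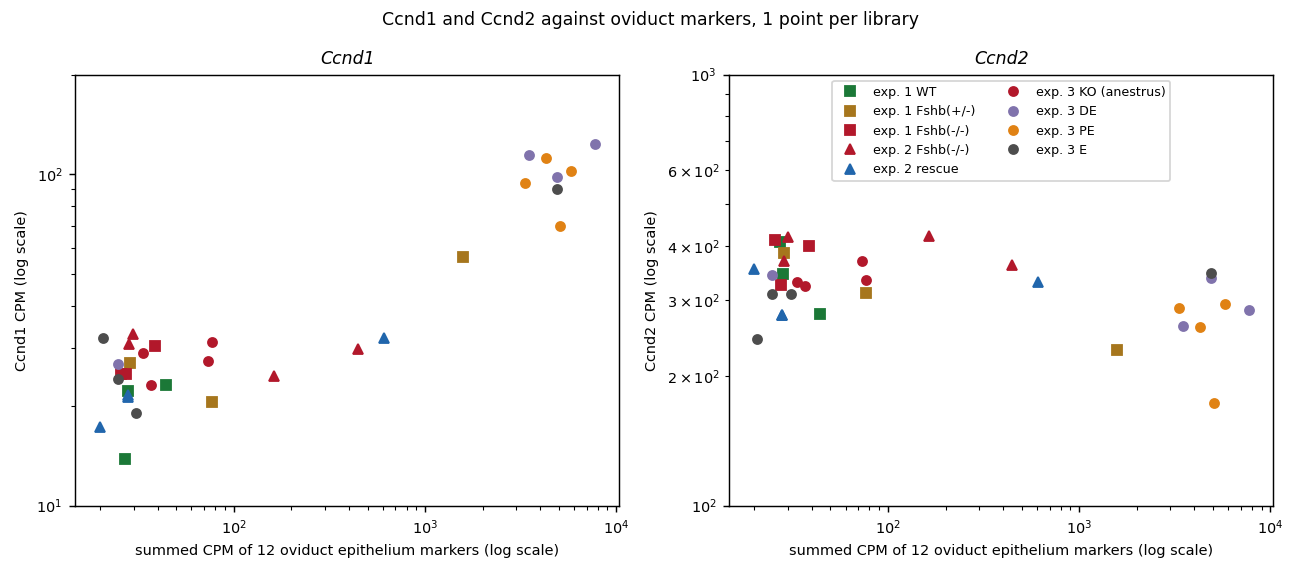
CPM of Ccnd1 (left) and Ccnd2 (right) against the summed CPM of 12 oviduct epithelium markers, on log axes, with 1 point per library, shape by experiment and colour by group. Ccnd1 lies at 56.2 CPM or more in the 9 libraries with marker sums of 1577 or more and at 33 CPM or less in the others, while Ccnd2 lies between 173 and 422 CPM throughout.

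Levels were also divided by the length in kb of all annotated exons of a gene, with overlaps counted once. Such a length can exceed that of the main transcript, so rankings between genes are approximate. On this scale Ccnd2 had the highest mean level of the cyclin class in each of the 9 groups. It was at 36.6 ± 6.93 CPM per kb (SD, n = 3) in WT, 40.3 ± 5 in Fshb(-/-) of experiment 1 and 26.9 ± 5.88 (n = 4) at PE. Ccnb2 was next in WT, at 16 ± 1.38 CPM per kb, and then Ccna2, at 12 ± 1.01. Ccnd3 and Ccnb1, at 7.58 ± 1.36 and 7.36 ± 0.959 in WT, did not differ beyond their spread, nor did Cdk1 and E2f1, at 5.64 ± 0.929 and 5.43 ± 0.67. Ccne1, at 1.51 ± 0.328 CPM per kb, was the lowest of the class in WT. Ccnd1 was at 4.19 ± 1.09 in WT and 5.86 ± 0.709 in KO (anestrus), but at 20 ± 3.8 at PE it came next after Ccnd2.

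In 3 further lists of genes of replication and mitosis, every call in these comparisons was in the direction of the members' calls, and many genes did not pass. The shares of all genes called were 4.53% higher against WT, 16.2% lower in the rescue and 16.3% lower at PE. Of 23 genes of replication and nucleotide supply, 9 were higher in Fshb(-/-) than in WT, 14 were lower in the rescue and 12 at PE. Uhrf1, which maintains DNA methylation behind the fork, was at 52.3, 66.6 and 55.5 CPM in WT and 110, 97.9 and 112 in Fshb(-/-), with 0.87 ± 0.16 (edgeR adjusted p = 0.014). It fell in the rescue with -0.58 ± 0.09 and at PE with -1.14 ± 0.21. Chaf1a, a histone chaperone of the fork, and Orc1, of the origin recognition complex, rose in Fshb(-/-) with 0.73 ± 0.12 and 1.09 ± 0.24. Of 19 spindle, kinetochore and cytokinesis genes, 5 were higher in Fshb(-/-) than in WT, 14 lower in the rescue and 17 lower at PE. Kif4, a kinesin of chromosome arms, was at 21.2, 24.2 and 27.3 CPM in WT and 43.5, 40.4 and 38.2 in Fshb(-/-), with 0.75 ± 0.16 (adjusted p = 0.028), and fell in the rescue with -0.60 ± 0.09. Of 12 genes of the switch from G2 to mitosis, 1 was higher in Fshb(-/-) than in WT (Cks2, 0.68 ± 0.17), 8 were lower in the rescue and 6 at PE; 1 of 12 is near the background against WT.

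The regulators above these genes were measured in a list of 14 for the RB, E2F and MuvB-MYB-FOXM1 groups. Of these 1 was higher in Fshb(-/-) than in WT, 4 were lower in the rescue and 8 at PE, against 4.53%, 16.2% and 16.3% of all genes, so the count against WT is near the background. Mybl2, which encodes B-MYB, was at 16.4, 18.6 and 17.1 CPM in WT and 25.1, 27.2 and 32.4 in Fshb(-/-), with 0.70 ± 0.13 (edgeR adjusted p = 0.014). In experiment 2 it was at 23.6, 28.9, 19.6 and 23.4 CPM in Fshb(-/-) and 15.7, 16.4, 16.7 and 14.7 in the rescue, with -0.59 ± 0.11 (adjusted p = 0.0047). The groups did not overlap in either experiment, and at PE Mybl2 fell with -1.18 ± 0.24. Foxm1 had 0.65 ± 0.17 (adjusted p = 0.052) against WT and fell at PE with -0.79 ± 0.19.

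The inhibitors of cyclin-dependent kinases did not all change in 1 direction. Of 9 kinases and inhibitors tested, Cdkn1c (p57) was lower in Fshb(-/-) than in WT (background 3.34% of all genes called lower), at 16.4, 13.6 and 20.4 CPM in WT and 8.95, 7.98 and 8.53 in Fshb(-/-), with -0.99 ± 0.25 (edgeR adjusted p = 0.043). In the rescue 2 were higher (background 15.8% called higher), Cdkn1b and Cdkn2b, and 3 were lower (background 16.2% called lower): the kinases Cdk2 and Cdk6 and the inhibitor Cdkn2c (p18). Cdkn2c was at 40.2, 36.7, 37 and 38.5 CPM in Fshb(-/-) and 31.5, 28, 27.9 and 25.9 in the rescue, without overlap, with -0.43 ± 0.07 (adjusted p = 0.0019), so it moved with the cell cycle genes. Cdkn1b (p27) was at 144, 146, 148 and 143 CPM in Fshb(-/-) and 188, 191, 370 and 412 in rescue replicates 1 to 4, group means of 145 ± 2.04 and 290 ± 118 (SD, n = 4; adjusted p = 0.028). Luteal markers in these rescue libraries summed to 10313, 11889, 25047 and 28816 CPM, and replicates 3 and 4 were the high ones in both; the part of luteal cells in Cdkn1b was not tested. Cdkn2b (p15) was at 1.22, 1.28, 1.64 and 1.34 CPM against 14.4, 27, 5.66 and 6.67, with 3.29 ± 0.53 (adjusted p = 0.0029). At E Cdkn1b rose again over KO (anestrus), from 153, 152, 146 and 150 CPM to 365, 406, 187 and 294, with 1.06 ± 0.21 (adjusted p = 0.0034; background 8.98% called higher). Cdkn1a (p21) rose over KO (anestrus) at DE, PE and E, with 2.23 ± 0.46, 2.07 ± 0.46 and 1.98 ± 0.46.

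Markers of oocytes were called in the same direction as most of the cell cycle genes in each comparison that had calls. In bulk ovary, fewer cells of a type and less RNA per cell cannot be told apart. Of 16 oocyte markers, 12 were higher in Fshb(-/-) than in WT and 13 than in Fshb(+/-), 16 were lower in the rescue, and 16, 16 and 7 were lower at DE, PE and E than in KO (anestrus). The shares of all genes called in these directions were 4.53%, 9.1%, 16.2%, 11.6%, 16.3% and 8.98%. Gdf9, a growth factor of the oocyte, was at 70.1, 93.7 and 88.2 CPM in WT and 138, 143 and 159 in Fshb(-/-). The markers summed to 525 to 696 CPM in WT, 391 to 609 in Fshb(+/-) and 995 to 1285 in Fshb(-/-) of experiment 1. In experiment 2 the sums were 1128 to 1671 in Fshb(-/-) and 481 to 691 in the rescue. In experiment 3 they were 1399 to 1650 in KO (anestrus), 242 to 832 at DE, 294 to 556 at PE and 579 to 834 at E. No oocyte marker was at 0 in every library of a group. Within Fshb(+/-) the mitosis genes summed to 810, 586 and 439 CPM in replicates 1 to 3 and the oocyte markers to 391, 609 and 398, so that the highest library was not the same. Within DE they summed to 376, 880, 1140 and 660 and 242, 490, 832 and 373 CPM in replicates 1 to 4, in the same order in all 4 libraries; in none of the other 8 groups was the order of the libraries the same. The part of oocytes in the levels of the cell cycle genes was not tested.

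Luteal, granulosa, endothelial and erythrocyte markers also differed between the groups. Of 10 luteal markers, 2 were lower in Fshb(-/-) than in WT, 9 were higher in the rescue, and 6, 6 and 8 were higher at DE, PE and E than in KO (anestrus). The shares of all genes called were 3.34% lower against WT, 15.8% higher in the rescue and 13.5%, 17.5% and 8.98% higher at DE, PE and E. Their sums were 7241 to 19040 CPM in WT and 4142 to 4959 in Fshb(-/-) of experiment 1, and 4197 to 5231 in Fshb(-/-) and 10313 to 28816 in the rescue of experiment 2. Of 12 granulosa markers, 2 were higher and 4 lower in Fshb(-/-) than in WT, and 7 were higher and 2 lower in the rescue, against 4.53%, 3.34%, 15.8% and 16.2% of all genes. Granulosa markers summed to 7515 to 8961 CPM in WT, 5454 to 5850 in Fshb(+/-) and 6380 to 7366 in Fshb(-/-), and to 4325 to 4706 in Fshb(-/-) and 6173 to 7346 in the rescue of experiment 2. These granulosa sums were lower in Fshb(-/-) than in WT and the rescue, and higher than in Fshb(+/-). In experiment 3 they were 3833 to 4361 CPM in KO (anestrus), 3168 to 7486 at DE, 2680 to 7622 at PE and 3959 to 5057 at E. Log2 fold changes of the 12 granulosa markers against WT ran from -4.42 to 1.88, so the sum joins genes that moved in both directions. Of 10 endothelial markers, 6 were lower in Fshb(-/-) than in WT and 7 than in Fshb(+/-) (background 3.34% and 7.9%), 9 were higher in the rescue, and 7, 3 and 5 were higher at DE, PE and E than in KO (anestrus). Vwf was called in the opposite direction against WT and in the rescue. Endothelial markers summed to 628 to 705 CPM in WT, 667 to 724 in Fshb(+/-) and 424 to 521 in Fshb(-/-), and to 409 to 448 in Fshb(-/-) and 515 to 710 in the rescue. Of 5 erythrocyte markers, 0 were called against WT and 5 were higher in the rescue, where they summed to 360, 330, 700 and 828 CPM against 132, 198, 199 and 144 in Fshb(-/-). None of these 4 lists held a marker at 0 in every library of a group. Whether these cell types had a part in the levels of the cell cycle genes was not tested.

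**Figure D5:**
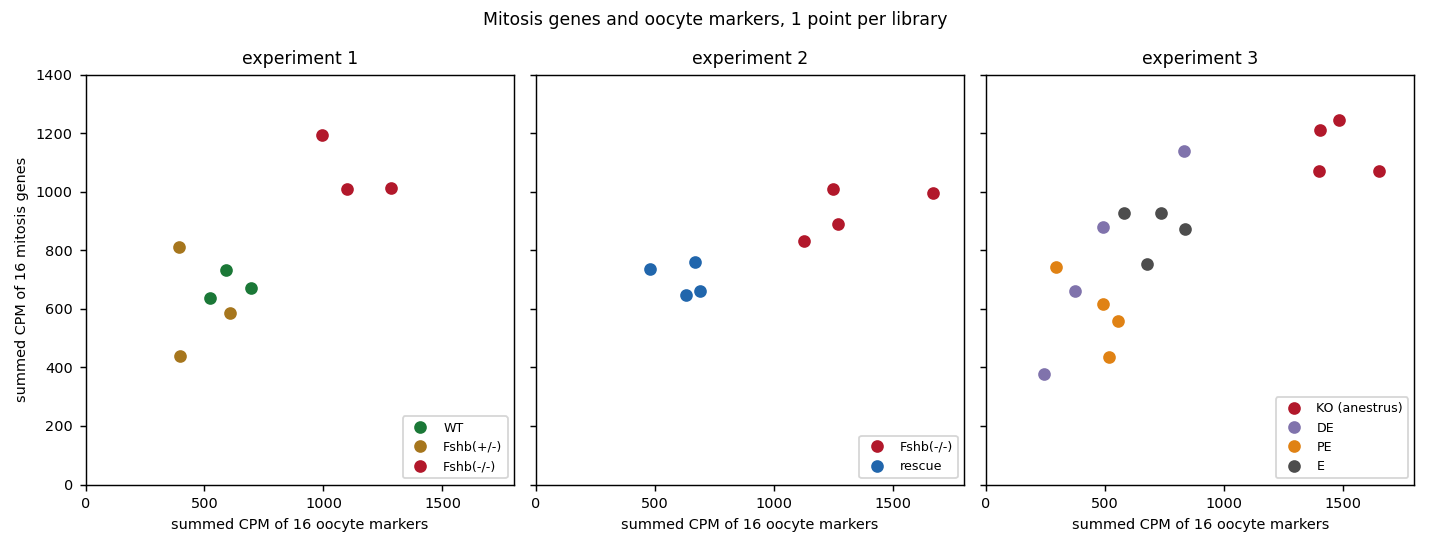
Summed CPM of the 16 mitosis genes against the summed CPM of 16 oocyte markers in each library, by experiment. The libraries labelled Fshb(-/-) or KO (anestrus) lie to the right of all others, at oocyte sums of 995 CPM or more, and DE replicate 3 reaches a mitosis sum of 1140 CPM at an oocyte sum of 832 CPM.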

How the data were processed

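The authors deposited expected counts per gene, estimated from polyadenylated RNA reads, in 1 table of 54347 Ensembl identifiers and 33 libraries; Salmon, DESeq2 and the build GRCm38 are named per the submitters' processing notes, without versions or settings. Identifiers were matched to GENCODE symbols (53307 with version, 54094 without it, 253 unmatched). The estimated counts (10.5% to 20.1% of values not whole) were rounded and tested with the edgeR quasi-likelihood test (edgeR 4.0.16, R 4.3.3; robust fit, TMM factors, filter on low counts by group), each experiment apart with all its groups, and adjusted over all genes tested by the Benjamini-Hochberg method at 0.05. CPM used TMM-scaled library sizes within each experiment. Library totals lay between 13.6 M and 16.9 M for experiment 1, between 19.6 M and 23.7 M for experiment 2, and between 10.1 M and 15.9 M for experiment 3. All pairs of libraries of a group differed by more than sampling noise (chi-square tests gave 5.65 to 73.6 per degree of freedom).

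The members and gene lists were chosen with earlier results of these data known. All 38 members could be named; values per library were given for a panel of 16 members and for up to 4 further members per class and comparison, and genes of other lists were named up to 4 per list, by smallest p. Alternatives were DESeq2 1.42.0, limma 3.58.1 (voom), other scaling factors, filters, a replicate block, fits of the compared groups alone, and leaving out libraries. The fits were tested on simulated data.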

Additional observations from a re-analysis of the deposited data

Results flagged for a closer look

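Among the 16 panel genes in the 6 groups of 4 libraries (96 sets of 4 values), 3 had a library set apart from the other libraries of its group, with a gap of 0.875 to 0.939 of the whole range, above Dixon's limit; chance flags about 1 in 20 groups. Cdk1 was at 43 CPM in rescue replicate 1 against 33.2 to 34.2 in the other rescue libraries. Mcm2 was at 63.9 CPM in replicate 3 of Fshb(-/-) in experiment 2 against 72.1 to 73.3 in the others. Ccne1 was at 3.41 CPM in KO (anestrus) replicate 2 against 4.22 to 4.28 in the others.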

How the results depend on the processing

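No setting reversed the direction of a called member, and the rescue comparison held 30 calls under DESeq2, limma voom, other factors and filters and 26 to 31 when a library was left out. For Fshb(-/-) against WT (9 calls) DESeq2 gave 20, limma voom 29 and the compared groups alone 24, with 1 to 2 when a library was left out. For Fshb(-/-) against Fshb(+/-) (19) leaving out a library gave 6 to 30. For DE against KO (anestrus) (8) limma voom gave 24, no filter 1, the compared groups alone 1 and leaving out DE and E replicates 3 together 22, with 0 to 22 when 1 library was left out. Of all genes the first 3 of these settings called 5792 of 16944, 3037 of 31300 and 3313 of 15775. With no filter or the compared groups alone, the members' share was thus not above that of all genes. For PE against KO (anestrus) (32) other settings gave 28 to 34 and leaving out a library 24 to 32. For E against KO (anestrus) (1) DESeq2 gave 2, limma voom 18, the compared groups alone 20 and leaving out replicates 3 together 3, with 0 to 2 when a library was left out. Between E and PE (0) limma voom gave 8 and leaving out replicates 3 together 5, with 0 to 1 when a library was left out; between DE and E (0) the last 2 gave 3 and 0 to 1. Fshb(+/-) against WT, PE against DE and the difference between experiments had 0 calls in all settings. Calls among all genes moved too, from 456 to 3589 for Fshb(-/-) against WT and from 1362 to 3990 against Fshb(+/-). In the rescue they ran from 3935 to 5972. Against KO (anestrus) they ran from 2422 to 6142 at DE, 3930 to 7928 at PE and 1920 to 5288 at E. The causes of these shifts were not tested.

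With the replicate number as a block, the calls were 3 for Fshb(-/-) against WT (Mcm5, Mcm6 and Bub1b), 14 against Fshb(+/-), 30 in the rescue, 7 at DE, 29 at PE and 1 at E. Of all genes, in the same order, these fits called 911 and 2232 of 17223, 4313 of 16871, and 3351, 4878 and 2388 of 16944. At DE and E the members' share was thus not above that of all genes. Deviations of libraries with the same number correlated from -0.12 to 0.13, -0.29 to 0.17 and -0.75 to 0.24 in experiments 1, 2 and 3. Those with different numbers correlated from -0.17 to 0.2, -0.39 to 0.55 and -0.34 to 0.62. No pairing by number was seen in these values, which cannot show that the libraries were unpaired. Rounded estimated counts and 3 or 4 libraries a group limit the precision, most for Ccne1, at 1.97 to 5.02 CPM.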
